A study of Arabidopsis thaliana with 4 samples.

Results

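Anthocyanins are the red to purple flavonoid pigments of plants, and Arabidopsis thaliana seedlings deposit them in the vacuoles of epidermal and subepidermal cells under strong light, sugar, cold and salt. The carbon skeleton comes from the general phenylpropanoid and early flavonoid enzymes, the late enzymes DFR and LDOX turn it towards anthocyanidin, and glycosyltransferases and acyltransferases then add sugars and acyl groups that make the pigment stable and soluble. The late and decorating genes are switched on by a complex of MYB, bHLH and WD-repeat proteins, of which PAP1, TT8 and TTG1 are the best known.

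The 4 genes described here are those with probe sets annotated to DFR (AT5G42800), AT5MAT (AT3G29590), AT4G14090 and UF3GT (AT5G54060). They were chosen with earlier results of these data known. Each is reported by 1 probe set, so they are 4 of the 22746 probe sets tested and 4 of the 13286 genes that those probe sets name. DFR encodes dihydroflavonol reductase, the first late enzyme. AT4G14090 encodes the anthocyanidin 5-O-glucosyltransferase, and UF3GT, also called UGT79B1, encodes a glycosyltransferase that adds xylose to the sugar at the 3 position of the pigment. AT5MAT encodes the malonyltransferase that acylates the glucose placed by the 5-O-glucosyltransferase, so AT4G14090 and AT5MAT act in sequence.

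Whole seedlings aged 6 days were exposed to 120 mM NaCl for 24 h, and total RNA was hybridised to Affymetrix ATH1 arrays, 2 for wild type and 2 for the mutant rsa3-1. Both genotypes are in Columbia gl1, a line that lacks most trichomes, and both carry a luciferase transgene under the RD29A promoter. RSA3 encodes a galactosyltransferase that acts on xyloglucan, a polysaccharide of the cell wall. The medium held 2% sucrose and the days had 16 h of light. All 4 arrays had salt, so the comparison asks how the genotypes differ under salt and holds no unstressed level. Each genotype has 2 biological replicates per the design text, and how many seedlings each pooled is not given in the sources used here.

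All 4 genes had lower values in rsa3-1 than in wild type on both arrays, and DFR and AT5MAT passed the test over all probe sets while AT4G14090 and UF3GT did not. These calls rest on few arrays: 0 of the 4 genes passed when wild type replicate 1 or rsa3-1 replicate 2 was left out, and AT4G14090 passed under 3 other settings of scaling or variance (limma adjusted p from 0.0290 to 0.0410). With the replicate number as a block, 0 of the 4 genes passed (limma adjusted p = 0.0776 in DFR and 0.103 in AT5MAT). A filter at a mean log2 value of 6 dropped AT5MAT, and 1 of 3 genes then passed. The transcript of DFR stood at 48.0% of its wild type level, that of AT4G14090 at 51.2%, that of AT5MAT at 57.6% and that of UF3GT at 64.1%, each from the difference of mean log2 values. The genes that passed were 2 of 4, while 0.466% of all probe sets were called lower and 1.13% were called in either direction (limma, Benjamini-Hochberg adjusted p under 0.05). In each of the 4 genes the genotypes were fully separated. Of all probe sets, 20.9% were separated with rsa3-1 lower and 38.6% in either direction. The median log2 difference of the 4 genes was -0.88, beside -0.01 over all probe sets. Because the 4 genes were chosen with earlier results known, these shares and medians are a description and no test of the set. In whole seedlings, fewer pigment-forming cells and less of the transcript per cell cannot be told apart.

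**Figure D1:**
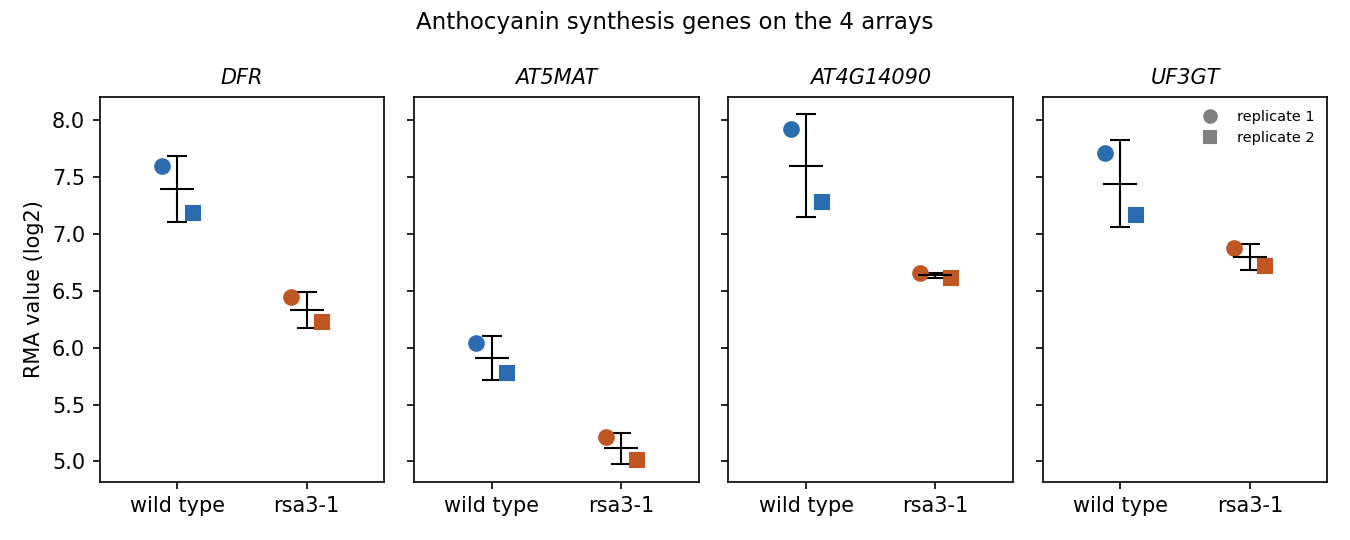
RMA values (log2) of the 4 genes on each array; circles are replicate 1, squares replicate 2, and the black bar is the mean ± SD of 2 arrays per genotype. In every panel both rsa3-1 arrays lie below both wild type arrays, with the smallest gap between genotypes in UF3GT (0.29).

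DFR commits dihydroflavonols to the anthocyanin and proanthocyanidin branches. On the log2 scale of the RMA values it read 7.60 in wild type replicate 1 and 7.19 in replicate 2, and the mutant arrays, replicate 1 first as in all pairs of values given here, read 6.45 and 6.22. The lower wild type array lay 0.74 above the higher rsa3-1 array. The mean level was 7.39 ± 0.29 in wild type and 6.34 ± 0.16 in the mutant (SD, n = 2 each). It fell by 1.06, with a standard error of 0.15 and a 95% interval from -1.42 to -0.70 (limma adjusted p = 0.0258). Of the 22746 log2 differences, DFR's was the 60th from the lowest.

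AT4G14090 places glucose on the 5 position of the pigment. Its wild type values of 7.92 and 7.28 lay far apart, while its rsa3-1 values of 6.65 and 6.62 were almost equal. Both mutant arrays lay below the lower wild type array by 0.63 or more. The log2 difference was -0.97 with a standard error of 0.19 and a 95% interval from -1.42 to -0.52, and it did not pass over all probe sets (limma adjusted p = 0.0857). Its wild type SD of 0.45 (n = 2) was the largest of the 4 genes, beside 0.03 in rsa3-1.

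AT5MAT uses malonyl-CoA to acylate the product of the preceding step. Wild type read 6.05 and 5.77 on the log2 scale and rsa3-1 read 5.21 and 5.02. The genotypes were separated by 0.56. The wild type arrays lay 0.27 apart, the smallest wild type gap of the 4 genes. The rsa3-1 arrays lay 0.20 apart, further than in AT4G14090 (0.04) and UF3GT (0.16). The mean level was 5.91 ± 0.19 in wild type and 5.11 ± 0.14 in the mutant (SD, n = 2 each). It fell by 0.80, with a standard error of 0.13 and a 95% interval from -1.10 to -0.49 (limma adjusted p = 0.0391). Array minima were 2.57 to 2.61, and without detection calls it is not known how much of the mutant signal of AT5MAT is background.

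UF3GT adds xylose to the 3-O-glucoside, a branch of the decoration that does not need the 5-O-glucose. The wild type arrays read 7.71 and 7.17 and the rsa3-1 arrays 6.88 and 6.72. Wild type replicate 2 lay 0.29 above the higher mutant array, the narrowest separation of the 4 genes. The log2 difference was -0.64 with a standard error of 0.18 and a 95% interval from -1.05 to -0.23, and UF3GT did not pass over all probe sets (limma adjusted p = 0.248). An unadjusted p under 0.05 was reached by all 4 genes and by 9.68% of all probe sets.

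The sizes of the 4 differences were compared within arrays, gene by gene. On that basis, DFR differed from UF3GT in its genotype difference by -0.42, from AT5MAT by -0.26 and from AT4G14090 by -0.09 on the log2 scale. For DFR against UF3GT the wild type arrays lay at -0.07 and 0.07 around their mean and the rsa3-1 arrays at -0.38 and -0.45, so the genotypes did not overlap. They also did not overlap for DFR against AT5MAT or for AT4G14090 against UF3GT (-0.32), and they overlapped in the other 3 of the 6 pairs. An exact permutation test of these within-array differences gave a two-sided p of 0.333 for each of the 3 pairs that did not overlap, which is the smallest that 2 arrays against 2 allow, and 0.667 after adjustment over the 6 pairs. This test could not pass at any size of effect, so it does not show that the 4 genes differed to the same extent.

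The 4 genes put the arrays in the same order. In each of them wild type replicate 1 was highest, wild type replicate 2 next, then rsa3-1 replicate 1, and rsa3-1 replicate 2 lowest. That order was found in 6.61% of all probe sets and in 58 of the 106 probe sets called lower (54.7%). In a probe set called lower the genotypes are already apart, so only the order within each genotype is free there. Centred on each gene's own mean over the arrays, wild type replicate 1 stood at 0.73 in DFR, 0.53 in AT5MAT, 0.80 in AT4G14090 and 0.59 in UF3GT. Wild type replicate 2 stood at 0.32, 0.26, 0.16 and 0.05 in the same genes, so in UF3GT it lay near the gene's own mean. The rsa3-1 arrays ran from -0.24 to -0.46 in replicate 1 and from -0.40 to -0.64 in replicate 2.

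**Figure D2:**
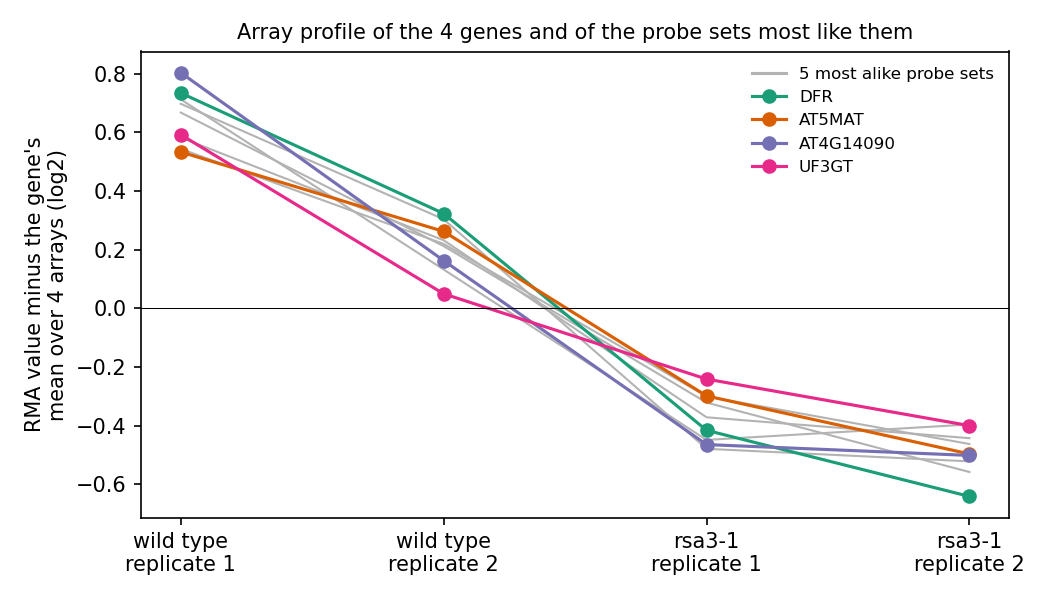
RMA value minus the gene's own mean over the 4 arrays (log2), by array, for the 4 genes in colour and for the 5 named probe sets with the most similar profile in grey. All lines are highest in wild type replicate 1, where the 4 genes stand at 0.53 to 0.80, and lie below 0 in both rsa3-1 arrays.

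The wild type arrays differed from each other in all 4 genes. Replicate 1 exceeded replicate 2 by 0.41 in DFR, 0.27 in AT5MAT, 0.64 in AT4G14090 and 0.54 in UF3GT on the log2 scale, against a median absolute gap of 0.12 over all probe sets. The gap of AT4G14090 was larger than that of 99.7% of probe sets and that of UF3GT larger than 99.0%, while DFR exceeded 96.0% and AT5MAT 84.2%. Set against the genotype difference of the same gene, the wild type gap was 0.34 of it in AT5MAT, 0.39 in DFR, 0.66 in AT4G14090 and 0.85 in UF3GT. The 2 genes whose wild type gap was largest against their difference are those that did not pass. The test itself sets the difference against a variance that holds this gap, so this is no separate observation. Between the rsa3-1 arrays, replicate 1 exceeded replicate 2 by 0.23 in DFR, 0.20 in AT5MAT, 0.16 in UF3GT and 0.04 in AT4G14090, against a median absolute gap of 0.11 over all probe sets.

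Wild type replicate 1 also held the highest value of 44 of the 45 bacterial and phage control probe sets, which stood there a median of 0.94 above the mean of the other arrays. Array medians ran from 6.46 to 6.51. The part of these control signals in the result was not tested, and the array itself was left out in turn. Without wild type replicate 1 the differences were -0.85 in DFR, -0.66 in AT5MAT, -0.65 in AT4G14090 and -0.37 in UF3GT, and 0 of the 4 genes passed (limma adjusted p = 0.0971, 0.195, 0.139 and 0.572). Without wild type replicate 2 they were -1.26, -0.93, -1.29 and -0.91, and DFR (limma adjusted p = 0.0284) and AT4G14090 (0.0140) passed, while AT5MAT (0.0629) and UF3GT (0.0581) did not.

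Leaving out a mutant array moved the differences less. Without rsa3-1 replicate 1 they ran from -1.17 in DFR to -0.72 in UF3GT, and 1 gene, DFR, passed (limma adjusted p = 0.0280), while AT5MAT had an adjusted p of 0.0501. Without rsa3-1 replicate 2 they ran from -0.95 in AT4G14090 and in DFR to -0.56 in UF3GT. In these fits the lone array is assumed to vary like the pair of the other genotype. Because both genotypes were fully separated in the 4 genes, no such fit could give another sign, and the kept sign says nothing of stability.

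**Figure D3:**
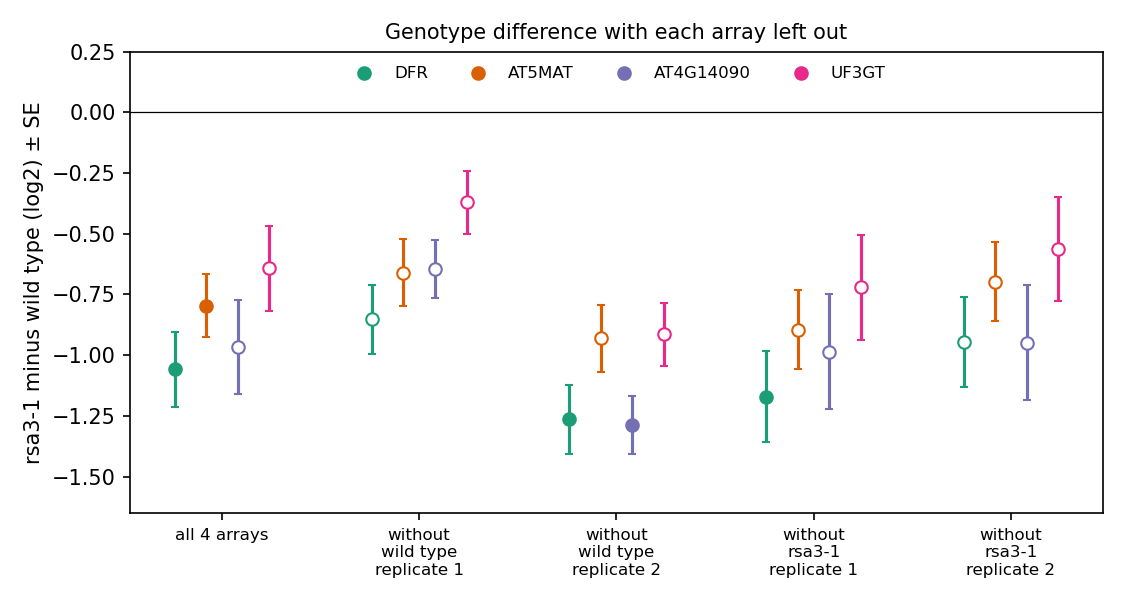
Genotype difference (rsa3-1 minus wild type, log2) of the 4 genes with its standard error, from all 4 arrays and with each array left out; filled points passed at a limma adjusted p under 0.05 over all probe sets and open points did not. No gene passes once wild type replicate 1 or rsa3-1 replicate 2 is dropped, and UF3GT passes in none of the 5 fits.

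The rest of the pathway was followed through 54 listed genes of flavonoid and anthocyanin synthesis, transport and control, the 4 genes included. A named probe set, annotated to that gene alone, covered 11 of them, and the other 43 were not analysed here. Of the 11, 2 fell, 0 rose and 9 did not pass, and 10 of 11 had lower values in rsa3-1. The 2 that fell are DFR and AT5MAT, and the 10 include all 4 genes. Over all probe sets 0.466% were called lower, and the median log2 difference was -0.01. Outside the 4 genes 7 were covered, and 0 of these passed in limma, with 0 at an unadjusted p under 0.05. Their median log2 difference was -0.14, with a range from -0.28 to 0.13.

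Of 6 listed early flavonoid genes, CHIL was the 1 measured, and the other 5 were not analysed here. It encodes a chalcone isomerase-like protein that assists the first committed flavonoid enzymes. Wild type read 8.05 and 7.89 and rsa3-1 read 7.87 and 7.95, so the genotypes overlapped. The difference was -0.06 with a 95% interval from -0.31 to 0.19. That interval does not reach the interval of DFR, a gene chosen with earlier results known. CHIL alone does not describe the early steps. BAN, the anthocyanidin reductase that leads into seed coat proanthocyanidins and draws on the same late intermediates, read 3.67 and 3.81 in wild type, against 3.84 and 3.89 in rsa3-1, a difference of 0.13. Its values were near the low end of the arrays and may be background.

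UGT78D2 attaches the 3-O-glucose that UF3GT extends, and it also acts on flavonols. It stood at 8.63 and 8.50 in wild type, against 8.39 and 8.38 in rsa3-1, a difference of -0.18 with a 95% interval from -0.42 to 0.06 (limma adjusted p = 0.651). The interval does not reach that of AT5MAT or AT4G14090, and it overlaps that of UF3GT, whose upper end is -0.23. Those 3 genes were chosen with earlier results known, so this is no test between genes. Of the decoration list, 4 of 8 genes were measured, all with lower values in rsa3-1, and AT5MAT was the 1 that fell. All but UGT78D2 belong to the genes described here.

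The flavonol glycosyltransferases share precursors with the anthocyanin branch. UGT78D1, a flavonol rhamnosyltransferase, read 8.51 and 8.29 in wild type, against 8.16 on both rsa3-1 arrays, a difference of -0.25 (limma adjusted p = 0.543). AT1G06000, listed for flavonol glycosylation, had a difference of -0.28 (adjusted p = 0.561) from wild type values of 8.83 and 8.52. UGT78D3, a flavonol arabinosyltransferase, had a difference of -0.11 at a wild type mean of 3.67, again close to background. None of the 3 passed. Their genotypes were separated with rsa3-1 lower, as in 20.9% of all probe sets.

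Of 8 listed repressors, TRY, a single-repeat MYB protein that competes for the bHLH partners of the activating complex, was measured. Its difference was -0.14, and its wild type mean of 3.85 is low enough to be background. None of the 13 listed activators, PAP1, TT8 and TTG1 among them, had a probe set annotated to it alone. The same holds for the 8 general phenylpropanoid genes, the 3 transport genes and LDOX, which acts directly after DFR. The 503 probe sets annotated to several genes and the 8730 not listed in the annotation were not searched. The genes without such a probe set were not analysed here.

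**Figure D4:**
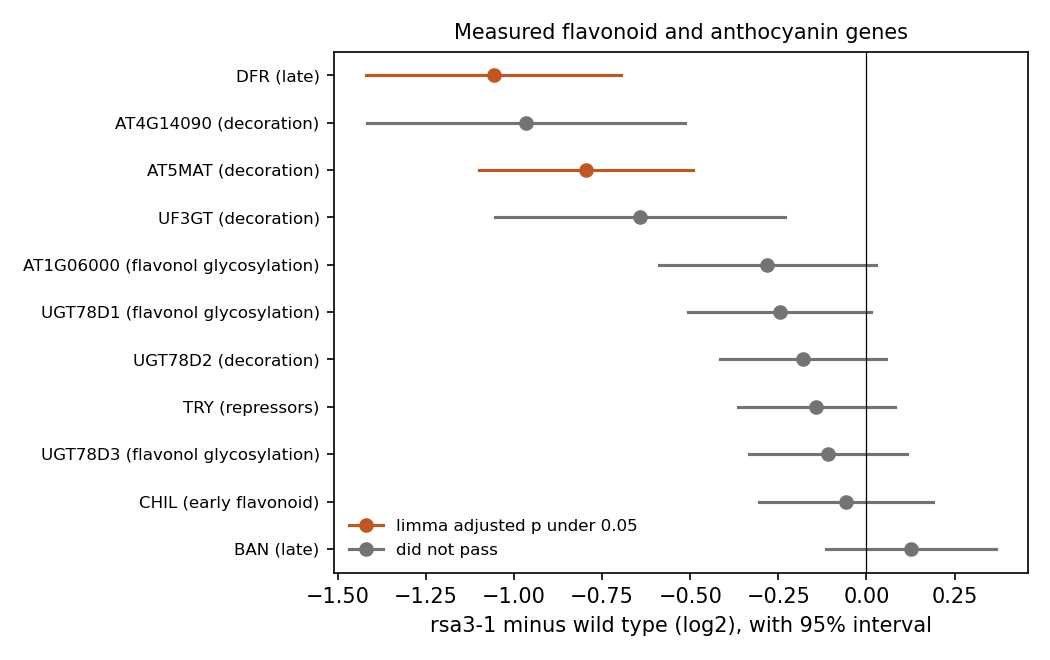
Difference between genotypes (rsa3-1 minus wild type, log2) with its 95% interval for the 11 measured pathway genes, each with its step; orange marks a limma adjusted p under 0.05 over all probe sets. The 4 genes described here have the lowest values, from -1.06 to -0.64, and the other 7 lie between -0.28 and 0.13.

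AT4G14090 and UF3GT belong to the large family of UDP-glycosyltransferases. Of 47 other probe sets whose RefSeq symbol starts with UGT, 0 passed in limma, while 3 reached an unadjusted p under 0.05. Of all probe sets 9.68% reached it. The differences of the 47 ran from -0.81 to 0.24 with a median of -0.11. AT4G14090 at -0.97 lay below that range and UF3GT at -0.64 within it. Both were chosen with earlier results known, so their place in the family is a description only.

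The 4 genes lie on chromosomes 3, 4 and 5, with DFR and UF3GT both on chromosome 5 but not next to each other in the RefSeq table of assembly TAIR10.1. Of the 3 protein-coding genes on either side of each, 24 in all, 8 had a named probe set. Their differences ran from -0.32 to 0.16 and 0 passed in limma. AT3G29635, near AT5MAT, was the 1 of them at an unadjusted p under 0.05, which 9.68% of all probe sets reached. Its wild type arrays read 4.177 and 3.998 and its mutant arrays 3.84 and 3.70, a difference of -0.32 (limma adjusted p = 0.407), at values that may be background.

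Likeness to the 4 genes was measured as the Euclidean distance over the 4 arrays between centred log2 values, against the mean centred profile of the 4 genes, for 13432 other named probe sets. The 5 nearest were AT3G22490 (distance 0.06), AT1G23070 (0.11), AT3G15280 (0.14), AT2G28780 (0.17) and AT3G13980 (0.17), while the 4 genes themselves lay at 0.16 to 0.23 from their own mean. AT3G22490 read 5.26 and 4.80 in wild type, against 4.27 and 4.03 in rsa3-1, a difference of -0.88. AT2G28780 (49.9% of its wild type level, limma adjusted p = 0.0218) and AT1G23070 (56.8%, adjusted p = 0.0397) passed over all probe sets. In the 5 genes wild type replicate 1 exceeded replicate 2 by 0.32 to 0.58. The 5 were picked for nearness to the mean profile, so this gap and their genotype difference follow from the choice. With so many probe sets and 4 arrays, near profiles are a description only.

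Markers of the tissue were measured for the shoot, the root and the stomatal lineage. Of 7 listed photosynthetic genes 4 were measured, with a mean log2 level of 12.83 and 12.86 in wild type, against 12.95 and 12.99 in rsa3-1. Of 5 listed root genes 3 were measured, at mean log2 levels of 9.25 and 9.18 in wild type, against 8.90 and 9.02 in rsa3-1. The 3 stomatal lineage genes, FMA, SPCH and MUTE, were at mean log2 levels of 5.02 and 4.87 in wild type, against 4.88 and 4.76 in rsa3-1. None of these 10 markers passed in limma. The shoot gene HPR, at 0.28, and the root hair gene EXPA18, at -0.37, reached an unadjusted p under 0.05. Of all probe sets 9.68% reached it. The part of the marker shifts in the result for the 4 genes was not tested. The listed general epidermal markers, which would bear most on where the pigment is stored, had no named probe set and were not analysed here. The same holds for the listed seed and trichome markers.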

How the data were processed

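The authors deposited log2 values from RMA, per the submitters' processing notes, a method that removes background, scales arrays to a common distribution and combines the probes of a set. Its version is not given in the sources used here. Values were used as deposited. Of 22810 probe sets, 64 controls were left out. The platform annotation gave 1 gene for 13513 probe sets, several for 503, and did not list 8730; 13436 of the first matched RefSeq (TAIR10.1) by gene identifier. The difference rsa3-1 minus wild type was fitted per probe set in R 4.3.3 with limma 3.58.1 (lmFit, eBayes, two-sided), adjusted over 22746 probe sets at 0.05; 5.35 prior degrees of freedom moderated the variance. The procedure was tested on simulated data. Figures used Python 3.11.15 and matplotlib 3.10.9. The number of arrays limits the precision. Named genes are the 4 genes, all measured pathway genes, and the 5 nearest profiles; the order, neighbour, family and pair comparisons were added after the values were seen. Genes and lists were chosen with earlier results of these data known.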

Additional observations from a re-analysis of the deposited data

How the results depend on the processing

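In the 11 alternatives, those of the 4 genes that were tested had lower values in rsa3-1, and UF3GT did not pass in any. With the replicate number as a block DFR had an adjusted p of 0.0776 at -1.06 and AT5MAT 0.103 at -0.80, 0 of the 4 genes and 0 of the 11 pathway genes passed, and 42 probe sets were called in place of 256. The sample labels do not say whether a replicate number marks a shared batch. Over all probe sets, replicate deviations correlated between the genotypes at 0.013, a value that does not describe single genes. In each of the 4 genes replicate 1 exceeded replicate 2 in both genotypes. The block lowered the standard error from 0.155 to 0.099 in DFR and from 0.129 to 0.090 in AT5MAT. It went from 0.192 to 0.170 in AT4G14090 and from 0.175 to 0.128 in UF3GT. A batch shift in these genes was not tested. The filter at a mean log2 value of 6 dropped AT5MAT, so 1 of 3 genes and 1 of 7 pathway genes passed. After quantile normalization AT4G14090 was at -0.96 (adjusted p = 0.0410), after shifting arrays to 1 median at -0.95 (0.0393) and under a trended, robust variance at -0.97 (0.0290), so 3 of 4 genes passed in each. The cause of these moves was not tested. With each array left out, differences ran from -1.26 to -0.85 in DFR, -0.93 to -0.66 in AT5MAT, -1.29 to -0.65 in AT4G14090 and -0.91 to -0.37 in UF3GT. The genes called ran from 0 to 2, as did the pathway genes, and the probe sets called from 102 to 222. The median of the 4 genes ran from -1.10 to -0.65. The few arrays limit the precision, and how much of the AT5MAT signal is background is not known.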
